A study of Homo sapiens with 6 samples.

Results

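The genes described here encode the machinery of mitosis: the kinase CDK1 with its cyclins and phosphatases, the Aurora and Polo kinases, the chromosomal passenger complex, kinetochore and checkpoint proteins, the regulators of anaphase, and the motors and scaffolds of the spindle and of cytokinesis. The 40 genes were chosen by name from a list, and a gene counted as measured when the array's annotation gave its symbol, and no other, to a transcript cluster, the set of probes that reads 1 transcribed locus. Of the 40 genes, 39 were measured, out of 18417 genes and 33297 clusters in all. The exception was CENPA, the centromeric histone, whose cluster also carried the symbol SLC35F6. BIRC5 had a second, dim cluster, and the one with the higher mean over the arrays was used.

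HEK293 is an established line made from human embryonic kidney cells with adenoviral genes, which divides rapidly in culture. Its total RNA, from cells of ATCC extracted with an RNeasy kit, was labelled with biotin and hybridised to 6 Affymetrix Gene 1.0 ST arrays, 3 labelled control and 3 labelled treatment. By the design text the controls were untreated and the other cells received pCMV9, an empty plasmid. The source labels differ from this, with "transient vector" on the control samples and "Neo vector" on the treatment samples, so the groups are called only control and treatment here. The labels state no dose, time after transfection or culture number. The study asked which gene products could underlie an anti-HIV effect seen after empty plasmid DNA was delivered to cells.

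Cells enter mitosis when CDK1, bound to cyclin B and freed of inhibitory phosphate by CDC25 phosphatases, becomes active. Kinetochores then tie chromosomes to spindle microtubules, the spindle checkpoint holds the anaphase-promoting complex until every chromosome is attached, and CDC20 with that complex marks securin and cyclin B for destruction, which frees separase and lets the cell leave mitosis. The genes for most of these proteins are transcribed late in the cell cycle, under the MuvB complex with B-MYB and FOXM1, through a promoter element called the cell cycle genes homology region, whose best known form is TTTGAA, and through CCAAT boxes bound by NF-Y.

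Median intensity per array lay between 77.2 and 84.2. Treatment replicate 3 stood apart: its mean Pearson's r with the other arrays was 0.963, and principal component 1, which held 37.8% of the variance, set it off from the rest. All 8 listed interferon response genes were called higher in the treatment arrays (limma, adjusted p under 0.05), against 0.357% of all clusters. They were listed with earlier results of these data known, so these calls are a description and no independent check. The median log2 difference of the 8 from the control mean was 3.38 in treatment replicate 1, the lowest of the treatment arrays, and 3.88 in replicate 2, the highest. Of the HEK293 markers, VIM, KRT8, KRT18, NEFL, NEFM and CDH2 lay at 663 or more on every array, and LIN28B at 288 to 399. PAX2 was dim, at 44.4 to 113, and its lowest value was under the 25th percentile of genes by mean intensity (45.5). No background level was measured, so its presence on every array is not shown. The summed intensity of 5 leukocyte markers was 288 to 380.2 in control and 277 to 469.7 in treatment arrays, that of 6 fibroblast markers 473 to 675 and 447 to 583, and that of 3 hepatocyte markers 101 to 137 and 109.8 to 219. No marker was at 0 on any array, and the part of such cells in the values below was not tested.

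No mitosis gene passed the test between the groups, although 36 of 39 had a mean difference below 0 (48.2% of all clusters and 61.3% of the genes above the median intensity did). The change of each gene is the difference of log2(intensity + 16), treatment minus control, so it is slightly smaller than the plain log2 ratio. Limma called 0 of the 39 genes at an adjusted p under 0.05, against 0.372% of all clusters (0.357% higher and 0.015% lower). Without adjustment, 3 were lower at p under 0.05 and 0 were higher, and of all clusters 7.3% passed that mark (2.29% lower and 5.01% higher). All 39 lie among the 9208 genes above the median intensity, of which 2.51% were lower at that mark. The median change over the 39 was -0.20, beside 0.01 over all clusters and -0.07 over those 9208 genes. In bulk RNA, fewer cells in mitosis and less of each transcript per cell cannot be told apart.

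On the scale of log2(intensity + 16), which shrinks a change, the 95% interval excluded a 2-fold decrease for 38 of 39 genes, all but HMMR, and a 2-fold increase for all 39. The lower limits of CENPE and CDCA8 lay so near that mark that a 2-fold decrease of their intensity itself is not excluded. Standard errors ran from 0.191 to 0.342 and adjusted p from 0.614 to 0.992. Without treatment replicate 3 the median change was -0.12, and 25 genes in place of 36 were below 0 (44.3% of all clusters in that fit).

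**Figure D1:**
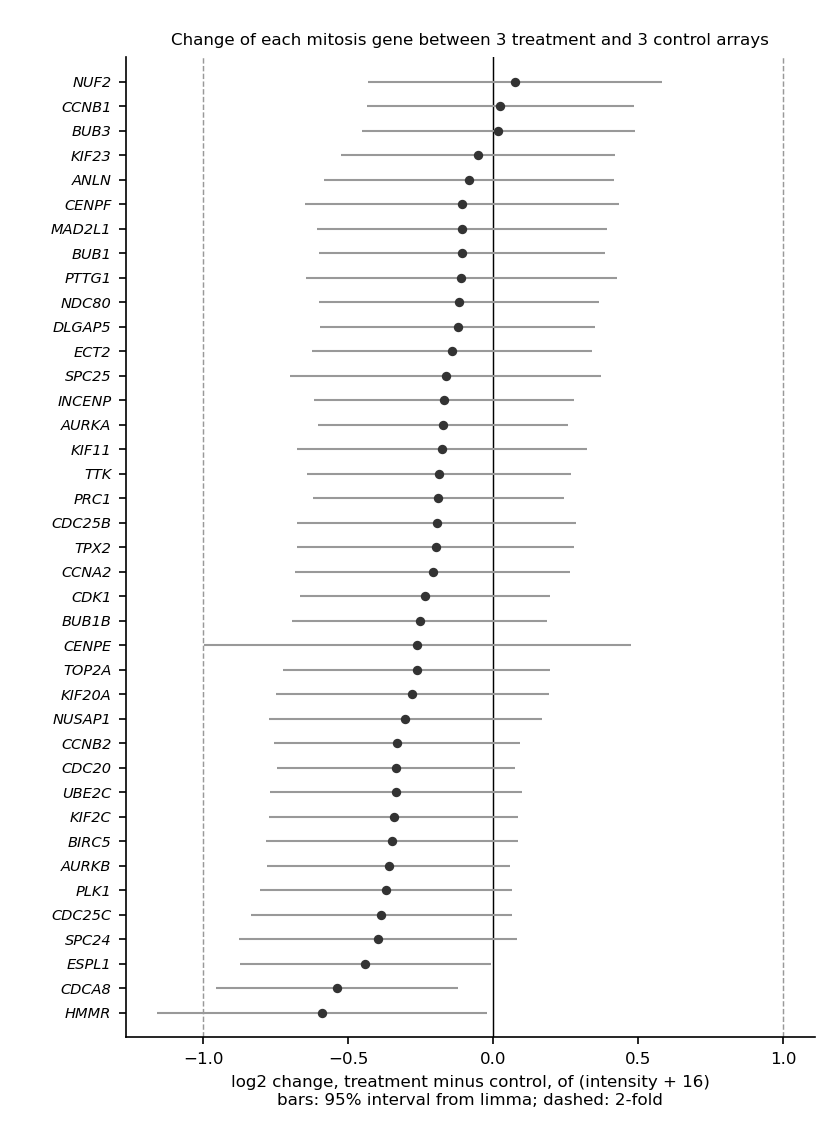
Change of each of the 39 mitosis genes, as points with 95% intervals from limma, on the log2 scale of intensity + 16 (treatment minus control, 3 arrays each); dashed lines mark a 2-fold change. The points run from -0.59 (HMMR) to 0.07 (NUF2), and the intervals of 36 genes include 0.

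CDCA8, HMMR and ESPL1 had the lowest p-values. Their promoters are shown as examples with those of CCNB2 and CCNB1, the cyclin genes of CDK1. The rule for choosing the genes did not use these letters. RefSeq's GRCh38.p14 promoter table, which gives 250 bases before and 50 after the start of each gene, held 33 of the 39 measured genes. The first entry of each gene was used. Each line below gives the 200 bases before the start, 5′ to 3′ on the gene's strand, with TTTGAA and CCAAT on either strand (TTCAAA and ATTGG on the other) in capitals.
CDCA8: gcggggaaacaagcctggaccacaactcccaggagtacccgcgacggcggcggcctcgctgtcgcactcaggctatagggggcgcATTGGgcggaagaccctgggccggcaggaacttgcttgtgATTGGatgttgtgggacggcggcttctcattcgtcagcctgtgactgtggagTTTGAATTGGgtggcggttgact
ESPL1: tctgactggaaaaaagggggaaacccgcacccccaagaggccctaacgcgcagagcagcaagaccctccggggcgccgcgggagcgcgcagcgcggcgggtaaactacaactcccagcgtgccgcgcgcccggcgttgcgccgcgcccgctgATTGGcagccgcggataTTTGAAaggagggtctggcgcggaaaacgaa
HMMR: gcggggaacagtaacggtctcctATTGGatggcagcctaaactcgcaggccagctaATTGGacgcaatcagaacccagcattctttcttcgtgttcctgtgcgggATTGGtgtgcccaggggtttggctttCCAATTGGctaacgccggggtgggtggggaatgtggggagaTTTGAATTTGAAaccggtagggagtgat
CCNB2: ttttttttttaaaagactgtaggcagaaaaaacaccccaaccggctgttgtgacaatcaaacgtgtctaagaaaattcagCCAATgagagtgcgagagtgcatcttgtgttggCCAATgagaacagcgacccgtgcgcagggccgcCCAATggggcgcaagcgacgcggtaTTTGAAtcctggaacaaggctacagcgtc
CCNB1: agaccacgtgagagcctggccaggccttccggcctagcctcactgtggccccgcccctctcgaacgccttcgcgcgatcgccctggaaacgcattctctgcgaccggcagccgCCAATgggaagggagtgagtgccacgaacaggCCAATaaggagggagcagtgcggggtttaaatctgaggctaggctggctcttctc

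These stretches lie on the plus strand at chr1:37692316-37692515, chr12:53268099-53268298, chr5:163460432-163460631, chr15:59104946-59105145 and chr5:69166950-69167149, upstream of the annotated start. TTTGAA began 23 bases before the start in CDCA8, 31 in ESPL1, 29 in CCNB2, and 28 and 22 in HMMR, where it stands as a tandem pair. The CCNB1 window had 2 CCAAT boxes and no TTTGAA. Over both strands of the 300-base windows, TTTGAA was found in 22 of 33 mitosis promoters (66.7%), in 15.4% of all 27305 genes' promoters, and in 1 of 35 promoters of DNA replication and G1/S genes (2.86%). CCAAT was found in 25 of 33 (75.8%), against 35.7% of all promoters, 21 of 35 DNA replication and G1/S promoters (60%) and 54.1% of those of the other mitotic and cell cycle genes, which held TTTGAA in 36.9%. TTTGAA and CCAAT stood together in 18 mitosis promoters (54.5%), against 6.08% of all. The motifs were counted after the values were seen. Adjoining matches to the motifs can share a base, as they do in CDCA8. A match is a description of the letters. The 22 genes with TTTGAA and the 11 without had median changes of -0.18 and -0.26, and median differences from the control mean in treatment replicate 3 of -0.48 and -0.45.

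The kinase CDK1, which drives entry into mitosis, gave intensities of 574, 505 and 495 on control replicates 1 to 3 and of 475, 482 and 378 on treatment replicates 1 to 3, an order kept below. Every treatment value lay below every control value, the third by the widest margin, and the change was -0.23 ± 0.200 (SE; limma, adjusted p = 0.807). CCNB1, its main cyclin partner, gave 2755, 3202 and 3751 and then 3736, 3442 and 2709.8. The groups overlapped, with treatment replicate 3 the lowest of the 6 and treatment replicate 1 near the highest control array, for a change of 0.02 ± 0.214 (95% interval -0.44 to 0.49). CDC25C, a phosphatase that activates CDK1, had the largest difference of these 6 genes: 269, 338 and 333 in control and 279.6, 235 and 197 in treatment arrays, a change of -0.39 ± 0.209 (adjusted p = 0.708). Treatment replicate 1 was above the lowest control array, so the groups overlapped. The rest of this group were CCNB2 (-0.33 ± 0.197), a second B-type cyclin whose groups did not overlap, CCNA2 (-0.21 ± 0.220), the cyclin of S and G2 phase, and the phosphatase CDC25B (-0.19 ± 0.223).

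Among the mitotic kinases, PLK1, which acts at centrosomes, kinetochores and the cleavage furrow, gave 1316, 1726 and 1698 in control and 1207, 1156 and 1269 in treatment arrays. All 3 treatment values were below the lowest control value and close to each other, and the change was -0.37 ± 0.201 (limma, adjusted p = 0.708). AURKA, the Aurora kinase of the centrosome and spindle poles, gave 1031, 1038 and 1053 and then 1044, 966 and 775. Treatment replicate 1 lay within the narrow control range, and replicates 2 and 3 stood below it, for a change of -0.17 ± 0.200. Its activator TPX2 had a change of -0.20 ± 0.221 with overlapping groups, replicate 3 at -0.56 from the control mean and replicate 1 at 0.14.

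The chromosomal passenger complex corrects faulty attachments and then moves to the midzone, and 3 of its 4 genes had groups that did not overlap, all lower in treatment (7.1% of all clusters and 10.5% of the genes above the median intensity did so). The median change of the 4 was -0.35, and in none of them was treatment replicate 3 the lowest array. CDCA8, which encodes the subunit borealin, gave 268, 304 and 309.9 in control and 182, 198 and 211 in treatment arrays. Each treatment array was well below each control array, and the change of -0.54 ± 0.194 had the lowest p of the 39 genes (limma, adjusted p = 0.614). AURKB, the kinase of the complex, gave 1179.7, 1152 and 1063 and then 797, 871 and 971, a change of -0.36 ± 0.195. BIRC5 (survivin), a small subunit that binds the centromere, gave 589.7, 551 and 501 and then 377, 409.5 and 499, a change of -0.35 ± 0.202. In both, treatment replicate 3 was the highest of the treatment arrays, and for BIRC5 it lay just under the lowest control array. The scaffold INCENP gave 328, 409.8 and 481 and then 378, 353 and 336, overlapping groups with a change of -0.17 ± 0.208. AURKB and BIRC5 were singled out after their values were seen. The dim second cluster of BIRC5 gave 49.3, 21.1 and 61.02 in control and 43.5, 35.2 and 35.8 in treatment arrays, a change of -0.08 ± 0.259.

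At the kinetochore the median change of 6 genes was -0.14, from medians of 0.27 in treatment replicate 1 and -0.55 in replicate 3. The microtubule-binding NDC80 complex is made of NDC80, NUF2, SPC24 and SPC25, and its subunits gave unlike values. SPC24 gave 317, 254 and 202 in control and 175, 168 and 227 in treatment arrays, the largest mean difference of the group (-0.40 ± 0.222, adjusted p = 0.716), with treatment replicates 1 and 2 under every control array and replicate 3 among them. NUF2 had the opposite order, 835, 777 and 849.6 and then 1029, 1044 and 599.8. Its first 2 treatment values were above every control value and the third was below, which left a change of 0.07 ± 0.236. SPC25 (-0.16 ± 0.249) and NDC80 (-0.12 ± 0.224) likewise had replicate 3 as the lowest array, at -0.69 and -0.52 from the control mean.

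CENPE, the kinesin that carries chromosomes to the spindle equator, was singled out after its values were seen, since it had the largest standard error of the 39. It gave 242, 273 and 380.3 in control and 387, 305 and 116 in treatment arrays. Treatment replicate 1 was the highest of all 6 arrays and replicate 3 the lowest, at 0.38 and -1.22 from the control mean. The fitted change was -0.26 ± 0.342, and without replicate 3 it was 0.22. CENPF, a large protein of the outer kinetochore, gave -0.11 ± 0.251 with the same order of arrays. The cluster shared by CENPA and SLC35F6, which cannot be assigned to either, gave 305, 349.7 and 295 in control and 249, 238 and 278 in treatment arrays (-0.30 ± 0.195).

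Treatment replicate 3 was the lowest array for all 5 genes of the spindle checkpoint, whose median change was -0.11. BUB1B (BubR1), part of the complex that inhibits CDC20, had the largest difference, with 470.0, 472 and 346 in control and 347, 371 and 345 in treatment arrays. The third control array stood with the treatment arrays, and the change was -0.25 ± 0.204 (95% interval -0.69 to 0.19). BUB3, its binding partner, gave 1028, 1199 and 1348 and then 1413, 1289.9 and 945, with replicate 3 the lowest array and replicate 1 the highest, for a change of 0.02 ± 0.219. The kinases TTK (-0.19 ± 0.211) and BUB1 (-0.11 ± 0.229) and the CDC20 inhibitor MAD2L1 (-0.11 ± 0.233) had differences from the control mean of -0.52, -0.57 and -0.55 in treatment replicate 3. In treatment replicates 1 and 2 these 3 genes lay between -0.05 and 0.20.

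Of the genes for anaphase onset, 3 of 4 had lower groups that did not overlap (7.1% of all clusters, 10.5% of the brighter genes), and the median change was -0.34. ESPL1 encodes separase, the protease that cuts cohesin, and gave 406, 491 and 409 in control and 273, 338 and 339 in treatment arrays. The lowest value was that of treatment replicate 1, and the change was -0.44 ± 0.201 (limma, adjusted p = 0.68). PTTG1 encodes securin, the inhibitor of separase, and gave 967, 1133 and 1793 and then 1363, 1192 and 959.6. The control arrays alone spanned nearly the whole range, and the change was -0.11 ± 0.250 (95% interval -0.65 to 0.43). CDC20, the activator of the anaphase-promoting complex, had a change of -0.33 ± 0.191, and UBE2C, its ubiquitin-conjugating enzyme, of -0.34 ± 0.201.

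The 5 spindle genes had a median change of -0.30 and held the largest mean difference of all 39 genes. HMMR, a microtubule-binding protein of the spindle poles, gave 401, 321 and 411 in control and 334, 282 and 152 in treatment arrays. Treatment replicate 1 lay within the control range, replicate 2 below it and replicate 3 far below it, and the change was -0.59 ± 0.264 (limma, adjusted p = 0.68). Without replicate 3 it was -0.28. DLGAP5, which stabilises spindle microtubules, gave 922, 936 and 1053 and then 1087, 956 and 674, a change of -0.12 ± 0.220. The motor KIF11 that pushes spindle poles apart (-0.18 ± 0.232), the microtubule depolymerase KIF2C (-0.34 ± 0.199) and the bundling protein NUSAP1 (-0.30 ± 0.218) completed the group, and of the 5 only KIF2C had groups that did not overlap.

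The midzone and cytokinesis genes had a median change of -0.14, with treatment replicate 3 the lowest array in 5 of 5. KIF20A, a motor needed to move the passenger complex, had the largest difference, with 512, 739 and 699 in control and 544, 605 and 443 in treatment arrays (-0.28 ± 0.219). Treatment replicate 3 was the lowest array and the other 2 overlapped the controls. KIF23, the motor of centralspindlin, gave 1093, 1157 and 1284 and then 1379, 1216 and 867, with replicate 1 above and replicate 3 below every control array (-0.05 ± 0.220). The bundler PRC1 (-0.19 ± 0.201), the contractile ring scaffold ANLN (-0.08 ± 0.232) and the RhoA activator ECT2 (-0.14 ± 0.223) had overlapping groups. TOP2A, the topoisomerase that untangles sister chromatids, gave 1151, 1382 and 1608 and then 1276, 1203 and 956, a change of -0.26 ± 0.214.

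**Figure D2:**
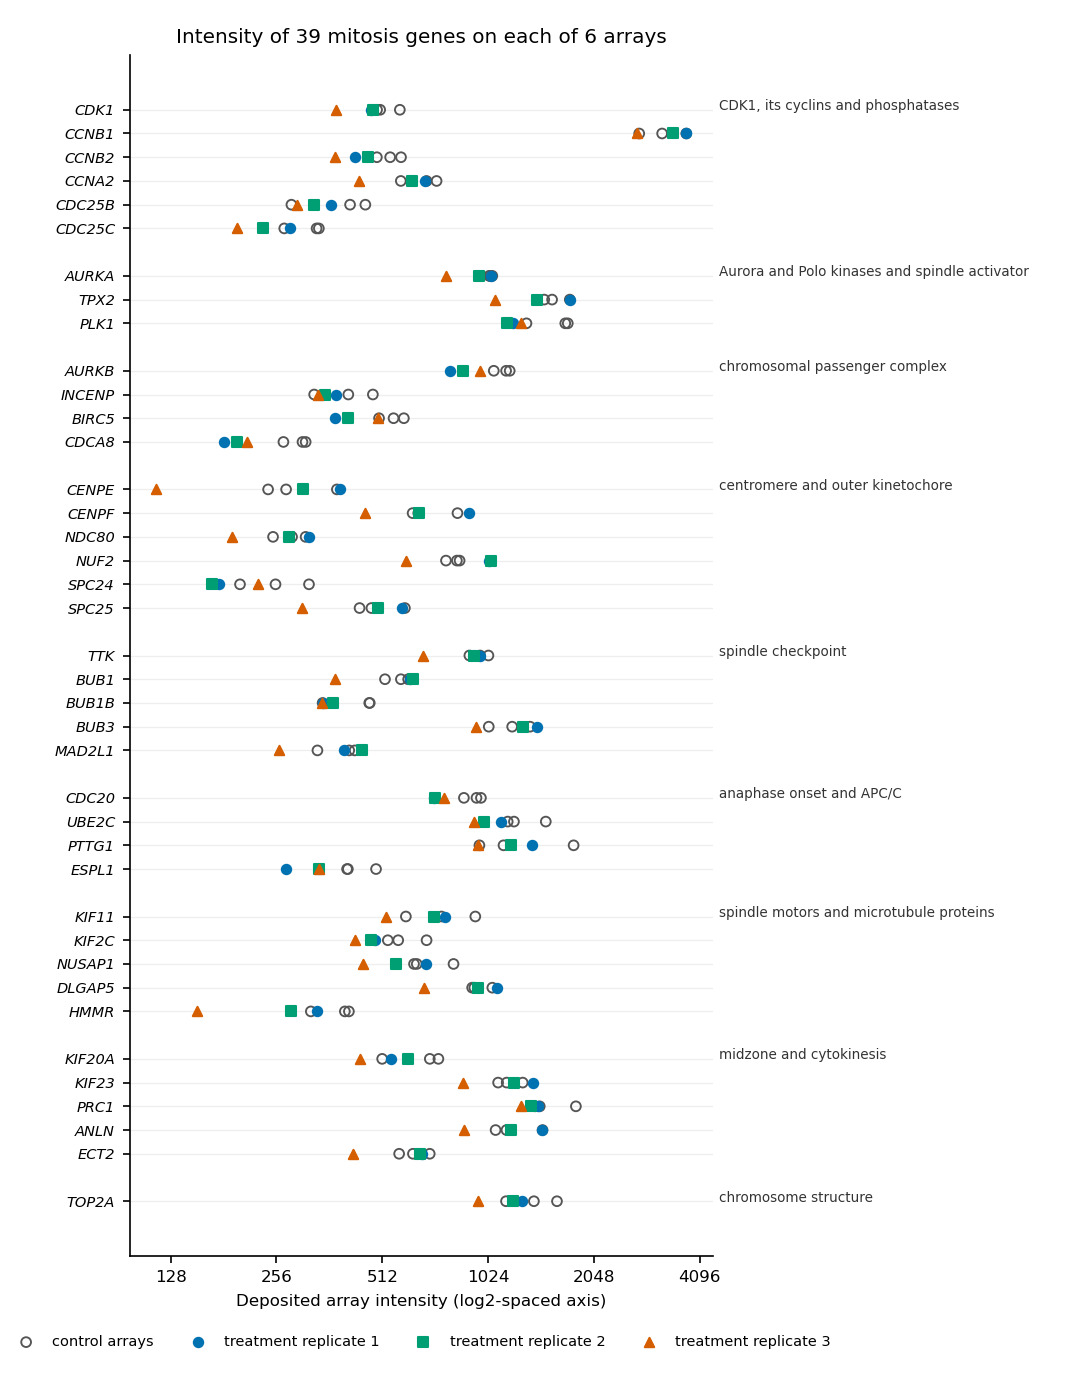
Deposited intensity of each mitosis gene on each array, on a log2-spaced axis, grouped by role; open circles are the 3 control arrays and filled symbols the 3 treatment arrays. Treatment replicate 3 (triangles) is the lowest of the 6 arrays for 30 of 39 genes. Levels of different genes are read by different probes and are not comparable.

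Mitosis gene values were lowest in treatment replicate 3. The median difference of the 39 genes from the control mean was -0.02, -0.12 and -0.45 in treatment replicates 1, 2 and 3. All 39 were below the control mean in replicate 3 (54% of all clusters and 72.1% of the 9208 genes above the median intensity were), 31 in replicate 2 (51.9% of those 9208 genes) and 20 in replicate 1 (46.4%). Replicate 3 was the lowest of the 6 arrays for 30 genes, or 76.9%, where it was the lowest for 29.2% of all clusters and 46.9% of the 9208 genes. The 3 treatment arrays are set against the same control mean, so these medians share its error. Among the control arrays, each set against the mean of the other 2, the medians were -0.16, -0.01 and 0.18. Control replicate 3 was the highest of the 6 arrays for 15 genes, or 38.5%. It was the highest for 15.3% of all clusters and for 17% of the highest quartile of genes by mean intensity.

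Genes of like intensity were also lower in that array. In treatment replicate 3 the median over the highest quartile of genes was -0.23 and over the third quartile -0.25, while over the second quartile it was 0.05 and over the lowest 0.16. Of the mitosis genes, 32 lie in the highest quartile and the rest in the third. Their median in that array was thus below that of the genes of either quartile, and the part of the array's own shift in it was not tested. In the same array the interferon genes were at a median difference between those of the other treatment arrays.

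**Figure D3:**
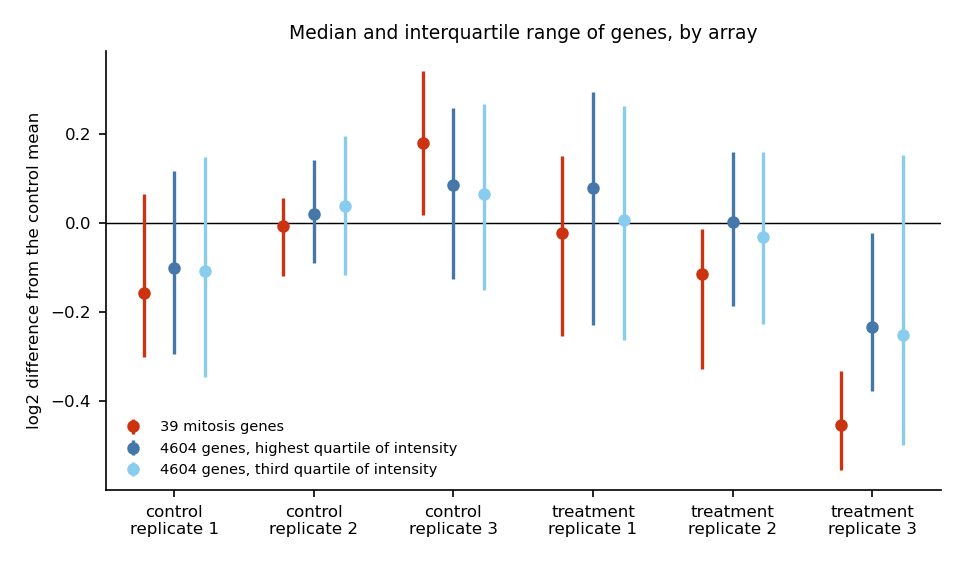
Median (points) and interquartile range (bars) of the log2 difference from the control mean, by array, for the 39 mitosis genes and for 2 intensity quartiles of all genes; control arrays are set against the mean of the other 2 controls. The mitosis median is lowest in treatment replicate 3, at -0.45, where the highest quartile of genes stands at -0.23.

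Groups that did not overlap were found in 10 of the 39 genes, all lower in the treatment arrays: CDK1, CCNB2, PLK1, AURKB, BIRC5, CDCA8, CDC20, UBE2C, ESPL1 and KIF2C. Over all clusters 7.1% had such lower groups, and over the 9208 brighter genes, of any locus length, 10.5%. All 10 have loci shorter than 28.5 kb, the median length of the 39, and length is taken up below. What part locus length has in this count was not tested. No mitosis gene had treatment arrays all above the controls (7.47% of all clusters). The median differences of these 10 from the control mean were -0.37, -0.36 and -0.39 in treatment replicates 1, 2 and 3, as a description of genes picked for this pattern, while the other 29 gave 0.04, -0.07 and -0.51.

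The mitosis genes differed in how long their loci are, and the array values varied with that length. Locus length was taken from RefSeq's gene table of GRCh38.p14 for all 39 genes, after the values were seen. The 19 genes shorter than the median length of 28.5 kb, among them AURKB, CDC20, UBE2C, SPC24 and BIRC5, had median differences from the control mean of -0.23, -0.19 and -0.38 in treatment replicates 1, 2 and 3. The 20 longer ones, among them CENPE, CENPF, HMMR, ANLN and ECT2, gave 0.09, -0.05 and -0.52. Single genes departed from these medians. In treatment replicate 1 the shorter BUB3 and CCNB1 stood at 0.25 and 0.22, and the longer HMMR at -0.16. Spearman's rho with length across the 39 genes, which share their libraries, was 0.49, 0.32 and -0.53 in the 3 treatment arrays, and across 9207 brighter genes with a length it was 0.36, 0.19 and -0.39.

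A like order stood in all genes above the median intensity, split into 5 equal bins of locus length. From the shortest bin to the longest, their median went from -0.19 to 0.20 in treatment replicate 1 and from -0.06 to 0.23 in control replicate 3. It fell from 0.03 to -0.38 in treatment replicate 3 and from 0.03 to -0.26 in control replicate 1. The change between the groups, which averages over the arrays, had medians of -0.10 in the shortest bin and -0.06 in the longest. Among the mitosis genes its median was -0.33 over the 19 shorter loci and -0.17 over the 20 longer ones. The shorter and the longer mitosis genes each had a median in treatment replicate 3 below that of every bin that spans loci of their range. What part this length-related difference between arrays has in the values of single mitosis genes was not tested.

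**Figure D4:**
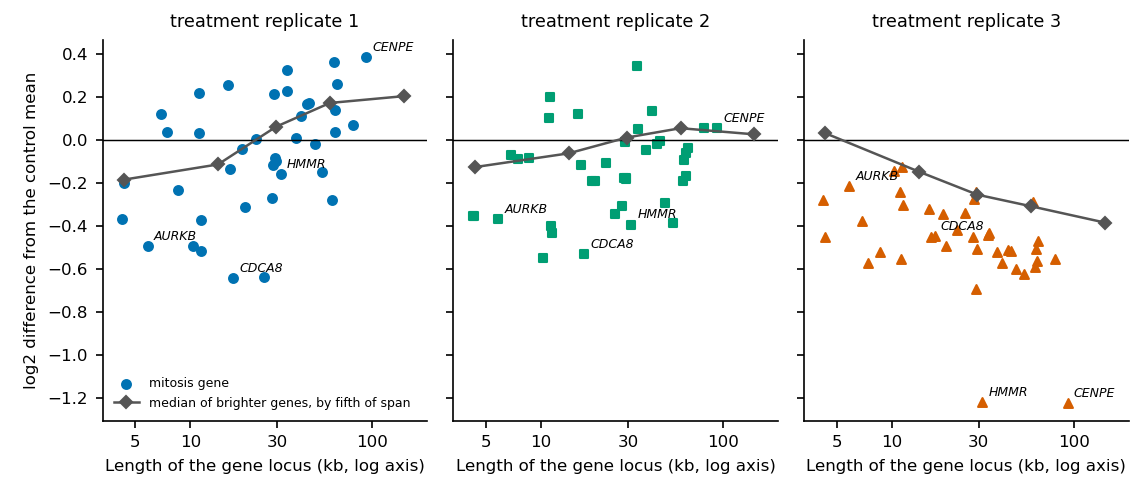
Log2 difference from the control mean of each mitosis gene (coloured points) against the length of its locus in kb on a log axis, 1 panel per treatment array; grey diamonds are medians of all genes above the median intensity in 5 bins of length. Longer loci lie higher in replicate 1 (rho 0.49) and lower in replicate 3 (rho -0.53), with CENPE and HMMR lowest at -1.22.

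The other genes of mitosis and its control, in 6 lists chosen by function, gave 0 of 127 calls (limma, adjusted p under 0.05), against 0.372% of all clusters. At an unadjusted p under 0.05 in that fit, 5 were lower and 1 higher (2.29% and 5.01% of all clusters). In treatment replicate 3, 114 of the 127 were below the control mean (54% of all clusters and 72.1% of the brighter genes). A mean change below 0 was found in 89 (48.2% of all clusters and 61.3% of the brighter genes), shares that also apply to the lists below. Of the 17 genes of the anaphase-promoting complex and its inhibitors, 13 were below 0, with a median of -0.22. ANAPC15, a subunit that helps dismantle the checkpoint complex, gave 849, 893 and 1028 in control and 667, 628 and 553 in treatment arrays (-0.57 ± 0.198, adjusted p = 0.593), and the subunit ANAPC11 had a change of -0.37 ± 0.204. Of 22 other spindle and cytokinesis genes, 18 were below 0 (median -0.19), with SPAG5 at -0.43 ± 0.192 and the chromokinesin KIF22 at -0.44 ± 0.200, and 8 of them had lower groups without overlap (7.1% of all clusters, 10.5% of the brighter genes). The 32 other measured genes of the centromere, kinetochore and checkpoint had a median of -0.10, with CENPW at -0.41 ± 0.199 and CENPH at -0.37 ± 0.231.

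Condensin and cohesin genes had a median change of 0.00, beside 0.01 over all clusters and -0.07 over the brighter genes, with 10 of 19 below 0. This averages over unlike arrays, with medians of 0.31, 0.10 and -0.29 in treatment replicates 1, 2 and 3. In replicate 3, 18 of the 19 were below the control mean (54% of all clusters and 72.1% of the brighter genes). Without that array the median of the 19 was 0.20. NCAPD3 (-0.27 ± 0.198) and NCAPG2 (0.26 ± 0.217), subunits of condensin II, had the lowest p and opposite signs. The 18 genes of CDK1 entry control and other mitotic kinases were split evenly, 9 below 0 and 9 above. CCNF, an F-box cyclin, gave 254, 336 and 363 in control and 196, 229.8 and 216 in treatment arrays (-0.53 ± 0.207). MASTL, the Greatwall kinase that protects CDK1 phosphorylation from phosphatase, gave 476, 562 and 649 and then 827, 882 and 677, and all 3 treatment values lay above the controls (0.49 ± 0.209, adjusted p = 0.68).

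Of the 19 regulators of late cell cycle transcription, 15 were below 0 (48.2% of all clusters and 61.3% of the brighter genes), with a median of -0.10. FOXM1, the forkhead factor of G2 genes, gave 497, 688 and 729 in control and 631, 500.0 and 409 in treatment arrays (-0.31 ± 0.230), and MYBL2 (B-MYB) gave 1104, 1333 and 1395 and then 1149, 1009.8 and 1031 (-0.26 ± 0.199). In both the groups overlapped, and FOXM1 was lowest in treatment replicate 3. CDKN1A (p21), an inhibitor of CDKs, gave 422, 597 and 603 and then 477, 465 and 564 (-0.09 ± 0.213, 95% interval -0.55 to 0.37). The lowest p in this list were those of NFYA (-0.49 ± 0.206), a subunit of the CCAAT-binding factor, and the repressor E2F4 (-0.38 ± 0.206).

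DNA replication and G1/S genes, the neighbouring programme of the cell cycle, had medians closer to each other across the treatment arrays. Of 41 measured genes, 26 were below 0 (48.2% of all clusters and 61.3% of the brighter genes). Their median was -0.13, beside -0.07 over the brighter genes. In the test 0 passed (0.372% of all clusters), and 1 was lower at an unadjusted p under 0.05 (2.29%). The medians of the 41 relative to the control mean were -0.12, -0.06 and -0.17 in treatment replicates 1, 2 and 3. In replicate 3, 29 of 41 were below the control mean (54% of all clusters and 72.1% of the brighter genes), where all 39 mitosis genes were. The difference between the lists was not tested. GINS2, of the replicative helicase, gave 533, 488 and 557 in control and 402, 352 and 412 in treatment arrays (-0.42 ± 0.194, limma, adjusted p = 0.681), and ORC1, of the origin recognition complex, had a change of -0.35 ± 0.189. In these 2 genes the groups did not overlap and treatment replicate 3 stood with the other treatment arrays.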

How the data were processed

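The deposited table holds 1 linear intensity per transcript cluster and array. The submitters' processing notes name Partek, while for background correction, normalization, probe summary and build the method is not given in these sources. Intensities ran from near 0, so 16 was added before log2, as in an earlier analysis of these data. Each of the 33297 clusters was tested with limma 3.58.1 (lmFit, eBayes; R 4.3.3), treatment against control, two-sided, without a block, with Benjamini-Hochberg adjustment over all clusters. Columns were matched to arrays by accession. The annotation tied 19460 clusters to 1 symbol and 1754 to several, and left 12083 unnamed. The cluster with the highest mean stood for a gene.

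The members and lists were chosen with earlier results of these data known. Values on every array are given for the member with the largest and the smallest change in each role group, CDK1, CCNB1 and members at an unadjusted p under 0.05. Up to 2 genes with the lowest p are named from each other list, besides FOXM1, MYBL2 and CDKN1A; other choices are marked in the text. Separate cultures are not stated for the replicates, so the p-values reflect the spread of the 6 arrays alone, possibly a technical one, and the number of arrays limits the precision. The pipeline was tested on simulated data with independent noise in each cluster. That simulation lacked the shifts that many genes share within an array here, so it does not cover them. Alternatives were other offsets, quantile normalization, median centring, filters on dim clusters, other variance priors, 1 cluster per gene, the replicate number as a block, and leaving out each array. Promoters and locus lengths are those of RefSeq on GRCh38.p14.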

Additional observations from a re-analysis of the deposited data

How the results depend on the processing

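Under all 17 alternatives 0 of the 39 mitosis genes were called, and the lowest adjusted p of any of them was 0.378 (CDCA8, offset of 50). The median change of the 39 ran from -0.29 without treatment replicate 1 to -0.12 without treatment replicate 3. The sign of the change differed from that of the reported fit in 14 genes under some alternative, in 11 of them without treatment replicate 3. The count of clusters called, 124, was 40 without any offset, 58 when 1 was added, and 69 to 129 over the fits that leave out 1 array, with 69 without control replicate 1 and 82 without treatment replicate 2; the cause was not tested. At an unadjusted p under 0.05, 10 mitosis genes were lower with an offset of 50 (4.15% of all clusters), 6 with an intensity trend (2.36%), 5 without treatment replicate 3 (4.18%) and 1 without an offset (2.4%). With the replicate block 105 clusters and 0 mitosis genes were called. Same-numbered arrays correlated at -0.17, 0.08 and -0.36 in their deviations from the group means, so no pairing by number was seen. So few arrays, with shifts shared by whole arrays, cannot exclude one. No background level was measured on these arrays, so how far it limits the dimmer of the 39 genes was not tested.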

Other observations

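The relation to locus length also stood in the related mitotic and cell cycle genes outside the 39. The 63 shorter loci among those 127 genes had median differences from the control mean of -0.02 in treatment replicate 1 and -0.33 in replicate 3, and the 64 longer ones 0.21 and -0.41. NFYB, a partner of NFYA in the CCAAT-binding factor, was looked at after its values were seen. It gave 396, 408 and 444 in control and 621, 615 and 419 in treatment arrays (0.38 ± 0.214, limma, adjusted p = 0.718), so that replicate 3 lay within the control range and NFYA and NFYB had changes of opposite sign.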
